A study of Mus musculus with 6 samples.

Results

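The ephrins, Slits and netrins are families of guidance cues, and the genes described here encode these cues and the Eph, Robo, Unc5 and Dcc receptors that read them. Members were taken from the probe sets that list a single gene, by symbol: ephrin-A and ephrin-B ligands, EphA and EphB receptors, Slit1 to Slit3, Robo1 to Robo3, the netrins, Unc5a to Unc5d and Dcc. Of 22180 genes measured, 35 were members, and Ephb2 and Ntn5 were not analysed here. The cells were Ebf2-GFP positive (3 arrays) and Ebf2-GFP negative (3 arrays) fibroblasts, both sorted as PDGFRα-positive. They came from 129SV embryos of genotype Ebf2(GFP)/+ at E14.5, by digestion of the dorsal body wall. Both groups therefore carried the GFP reporter of Ebf2, a transcription factor gene of the early B cell factor family, and both carried PDGFRα, a surface receptor of mesenchymal cells. The comparison asked how cells positive for GFP differ from PDGFRα-positive cells negative for it, in a series on precursors of brown and beige fat cells. Total RNA was measured on Affymetrix arrays, and values are log2 expression per probe set. Nothing in the labels ties a replicate to its own litter or embryo, so the spread behind each p-value is that of these arrays and may be technical.

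Ephrins are membrane-bound ligands, ephrin-A through a lipid anchor and ephrin-B through a transmembrane segment. Their Eph receptors are tyrosine kinases, and contact between cells can signal in both directions, which often separates cell populations and forms tissue boundaries, such as those between somites. Slits are secreted proteins that mostly repel through Robo receptors. Netrins are laminin-related secreted proteins that attract cells through Dcc and repel them through Unc5 receptors. All of these families are best known from growing axons and also act in mesenchyme, vessels and epithelia.

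The sort was visible in Ebf2 itself, at log2 12.04, 12.04 and 11.93 in the GFP-positive arrays and 8.16, 8.60 and 9.21 in the GFP-negative arrays. Pdgfra was at 13.24, 13.10 and 13.07 in GFP-positive and 12.97, 12.98 and 12.90 in GFP-negative arrays, a change that did not pass (0.19 ± 0.06 SE, limma adjusted p = 0.178). Array medians lay between 6.657 and 6.712, and arrays of the same group correlated at 0.9951 or more over all genes. None of the 8 fibroblast genes listed was below log2 6.78, the 40th percentile of gene means that served as a mark of dim signal, in all arrays. Of these genes 2 fell, Twist2 (3.18-fold) and Lum (1.27-fold), and none rose, with log2 sums of 15.85 to 15.96 in GFP-positive and 16.03 to 16.09 in GFP-negative arrays. Marker lists of other cell types also differed. All 10 macrophage genes fell in GFP-positive cells, and the log2 of their summed values was 10.85 to 11.82 in GFP-positive and 13.22 to 14.21 in GFP-negative arrays. Cartilage genes were lower for 8 of 8, with sums of 12.84 to 13.06 in GFP-positive and 14.45 to 14.72 in GFP-negative arrays. Of 6 measured Schwann and neural crest genes 2 were lower, Fabp7 (3.12-fold) and Sox10 (1.54-fold), and none higher. Their sums were 10.82 to 11.32 in GFP-positive and 12.23 to 12.58 in GFP-negative arrays, and Fabp7 weighs most in them. Of 8 mural genes 3 were lower and 1 higher (sums 13.19 to 13.30 in GFP-positive and 13.29 to 13.50 in GFP-negative arrays), and of 10 endothelial genes 1 was lower and 1 higher (sums 12.69 to 12.95 and, in GFP-negative arrays, 12.63 to 13.15). Of 8 neuronal genes 1, Stmn2, was lower (sums 11.46 to 11.65 in GFP-positive and 11.69 to 11.82 in GFP-negative arrays). Dcx, Nefl and Elavl4 had log2 changes of 0.97, 0.32 and 0.07 that pointed the other way and did not pass. Of 6 epidermal genes 1, Cdh1, was lower (9.51 to 9.62 in GFP-positive and 9.80 to 9.87 in GFP-negative arrays). Epcam and Krt14 had changes of 0.49 and 0.12 that pointed the other way and did not pass. None of 8 skeletal muscle genes passed (11.13 to 11.48 in GFP-positive and 10.92 to 11.29 in GFP-negative arrays). Elavl4, Myh3, Krt15 and Trp63 were below the mark of dim signal in all arrays. The part of any of these cells in the differences below was not tested, and in such bulk samples fewer cells of a type and less RNA per cell cannot be told apart.

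**Figure D1:**
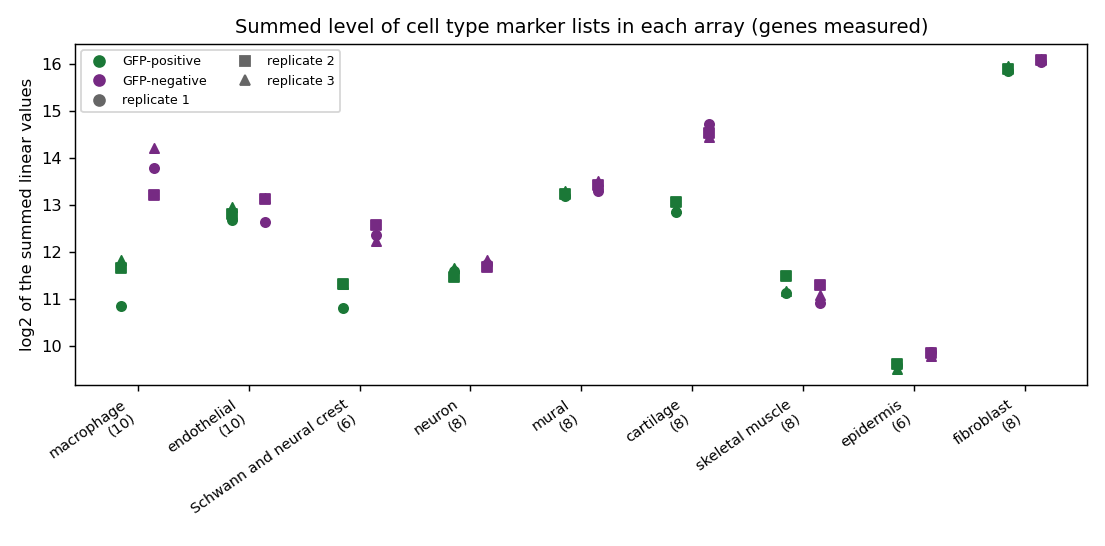
Log2 of the summed linear values (vertical axis) of 9 cell type marker lists in each array, with the number of genes measured in parentheses, GFP-positive arrays left of GFP-negative arrays and a symbol shape for each replicate number. The groups do not overlap for the macrophage, cartilage, Schwann, neuron, epidermis and fibroblast lists. The first 3 lie farthest apart, at 10.85 to 11.82, 12.84 to 13.06 and 10.82 to 11.32 in GFP-positive arrays, against 13.22 to 14.21, 14.45 to 14.72 and 12.23 to 12.58 in GFP-negative arrays. In the Schwann, neuron, epidermis and fibroblast lists 2 of 6, 1 of 8, 1 of 6 and 2 of 8 genes were lower. Linear sums weigh genes with high values most, such as Fabp7 in the Schwann list (mean log2 10.34 in GFP-positive and 11.99 in GFP-negative arrays). Only Stmn2 passed in the neuron list and only Cdh1 in the epidermis list. Dcx, Nefl, Elavl4, Epcam and Krt14 pointed the other way without passing. Sums without Stmn2 or Cdh1 were not taken, so the sums do not stand for every gene of a list.

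Guidance genes were more often lower than higher in GFP-positive cells. Of the 35 members, 10 fell and 2 rose in limma's test across all genes (Benjamini-Hochberg adjusted p under 0.05), which is 28.6% lower and 5.71% higher. Among all 22180 genes, 3.84% were lower and 2.65% higher. The members were chosen with earlier results of these data known, so these shares are descriptive. The genes that fell were the ligands Efna5, Efnb2, Efnb3, Slit3 and Ntn4 and the receptors Epha8, Epha1, Epha5, Ephb6 and Robo2, and the genes that rose were the receptors Epha3 and Ephb1. Of 14 ligand genes 5 fell and none rose, and of 21 receptor genes 5 fell and 2 rose. The median log2 change over the members was −0.077 (GFP-positive minus GFP-negative), against 0.016 over all genes, and 1 member, Epha8, differed by at least 2-fold. The arrays of the groups did not overlap for 12 members with lower and 2 with higher values in GFP-positive cells, where 9.78% and 12.3% of all genes did so. The plots of values by array and of changes by family show the members one by one. Whether the changes of members of one family differ from each other was not tested.

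**Figure D2:**
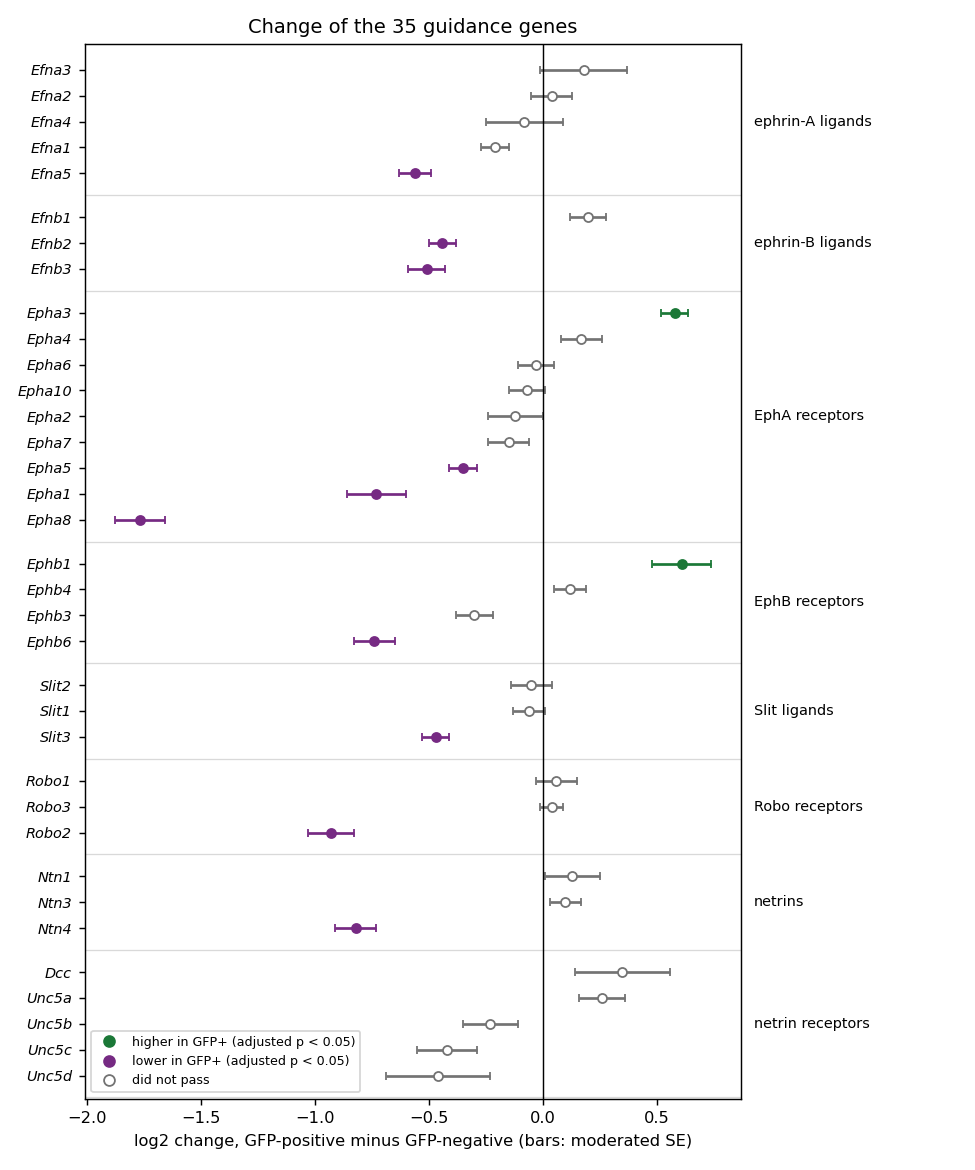
Log2 change, GFP-positive minus GFP-negative, with limma's moderated standard error, for the 35 guidance genes by family. Filled points passed the test, 10 of them lower and 2 higher in GFP-positive cells, and the changes run from −1.77 for Epha8 to 0.61 for Ephb1.

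With the replicate number as a block, 16 members passed, 12 lower and 4 higher, where 5.49% of all genes were lower and 4.55% higher. These held all 12 members that passed without the block, and Ephb3, Unc5c, Dcc and Unc5a in addition. What arrays of one number have in common is not stated in the labels, so calls that need the block rest on a pairing inferred from the data. After centring each array on its median, 868 of all genes were higher and 749 lower, in place of 588 higher and 851 lower, whereas 2 members were higher and 9 lower, Epha5 being the member lost.

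The ligands are described first. Efna5 encodes ephrin-A5, a ligand of several EphA receptors that also binds EphB2. It had log2 values of 10.83, 10.65 and 10.70 in GFP-positive arrays and 11.37, 11.20 and 11.27 in GFP-negative arrays. All GFP-positive arrays lay below all GFP-negative ones, and the gene fell 1.47-fold (log2 change −0.56 ± 0.07 SE, limma adjusted p = 0.00752). The other ephrin-A genes did not pass. Efna1, a ligand also known from endothelium and epithelium, was at 9.17, 9.17 and 9.18 in GFP-positive and 9.34, 9.49 and 9.32 in GFP-negative arrays, and its change of −0.21 ± 0.06 SE, with groups that did not overlap, missed the threshold (limma adjusted p = 0.116). Efna2, Efna3 and Efna4 had log2 changes of 0.04, 0.18 and −0.08 with overlapping groups.

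Of the ephrin-B genes, 2 of 3 fell. Efnb2 encodes ephrin-B2, known as a marker of arterial endothelium and as a ligand at somite boundaries. Its values were 11.05, 11.03 and 11.12 in GFP-positive arrays and 11.46, 11.48 and 11.58 in GFP-negative arrays. The groups did not overlap, and the fall was 1.36-fold (−0.44 ± 0.06 SE, limma adjusted p = 0.00841). Efnb3 encodes ephrin-B3, a midline repellent of the spinal cord. It was at 10.20, 10.08 and 10.06 in GFP-positive arrays and 10.77, 10.62 and 10.49 in GFP-negative arrays, a fall of 1.42-fold (−0.51 ± 0.08 SE, limma adjusted p = 0.0181). The groups were again apart, but the call ended when GFP-negative replicate 2 or any 1 GFP-positive array was left out, with adjusted p-values of 0.0512 to 0.0827. Efnb1 encodes ephrin-B1, which acts in craniofacial and skeletal boundaries. Its values of 12.10, 12.01 and 12.25 in GFP-positive and 11.87, 11.86 and 12.01 in GFP-negative arrays overlapped narrowly, and its change of 0.20 ± 0.08 SE pointed the other way without passing (limma adjusted p = 0.26).

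Epha8 gave the largest change of the family. It encodes an EphA receptor best known from the developing nervous system. Its log2 values were 6.25, 6.42 and 6.37 in GFP-positive arrays and 8.21, 8.26 and 7.87 in GFP-negative arrays. A gap of 1.45 log2 units separated the groups, and the fall was 3.41-fold (−1.77 ± 0.11 SE, limma adjusted p = 0.000567). The mean in GFP-positive cells, 6.35 ± 0.08 (SD, n = 3), lay below the mark of dim signal, so this fold may be a lower bound. The call held in all 15 alternative fits, with adjusted p-values of up to 0.00685.

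Epha3 went the other way. It encodes an EphA receptor for which ephrin-A5 is a high-affinity ligand, and it is found in mesenchyme of several developing tissues. Its values were 12.43, 12.33 and 12.42 in GFP-positive arrays and 11.77, 11.89 and 11.79 in GFP-negative arrays. The groups were apart by 0.44, and the gene rose 1.49-fold (0.58 ± 0.06 SE, limma adjusted p = 0.00315). In the same arrays Efna5, the gene of ephrin-A5, fell, whereas Efna2, Efna3 and Efna4 did not pass. Epha3 and Efna5 were set side by side after their values were seen.

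The remaining EphA genes that fell had smaller or less stable changes. Epha1, an EphA receptor known mostly from epithelia, was at 7.38, 7.13 and 7.50 in GFP-positive and 7.96, 7.95 and 8.30 in GFP-negative arrays. It fell 1.66-fold (−0.73 ± 0.13 SE, limma adjusted p = 0.0233), and the call ended when any 1 array other than GFP-positive replicate 3 was left out, with adjusted p-values of 0.0502 to 0.0882. Epha5, a neuronal EphA receptor, was at 7.72, 7.64 and 7.68 in GFP-positive and 8.11, 8.04 and 7.93 in GFP-negative arrays, a fall of 1.27-fold (−0.35 ± 0.06 SE, limma adjusted p = 0.0259). Its call ended after median centring (0.0649) and without any 1 array other than GFP-negative replicate 3 (0.0644 to 0.104). The other 5 EphA genes did not pass and their groups overlapped. Epha4, a receptor of both ephrin classes, had a log2 change of 0.17, and Epha7, Epha2, Epha10 and Epha6 had changes of −0.15, −0.12, −0.07 and −0.03, with Epha6 below the mark of dim signal in both groups.

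Among the EphB receptors, Ephb6 encodes a member whose kinase domain is inactive. It had values of 7.38, 7.22 and 7.33 in GFP-positive arrays and 8.09, 8.16 and 7.88 in GFP-negative arrays. The groups did not overlap, and the gene fell 1.67-fold (−0.74 ± 0.09 SE, limma adjusted p = 0.00511). Ephb1, a receptor of ephrin-B ligands, was at 8.90, 8.75 and 8.37 in GFP-positive arrays and 7.99, 8.08 and 8.12 in GFP-negative arrays, a rise of 1.53-fold (0.61 ± 0.13 SE, limma adjusted p = 0.0462). The GFP-positive arrays spread widely, and the call ended with array weights (0.0636) and when any 1 array other than GFP-positive replicate 3 was left out (0.108 to 0.165). A second Ephb1 probe set, with a mean of log2 7.29, rose by 0.29 ± 0.06 SE (limma adjusted p = 0.046 in a fit over all single-gene probe sets). Ephb3, another EphB receptor, was at 10.70, 10.59 and 10.74 in GFP-positive and 11.09, 10.87 and 10.97 in GFP-negative arrays. Its change of −0.30 ± 0.08 SE missed the threshold (limma adjusted p = 0.0744) and passed after quantile normalization (0.0476) and with the replicate block (0.036). Ephb4, the venous partner of ephrin-B2, had a change of 0.12 with overlapping groups.

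In the Slit and Robo families, 1 ligand gene and 1 receptor gene fell. Robo2 encodes a Slit receptor known from axon guidance and from the placing of the ureter in the kidney. It had values of 10.42, 10.12 and 10.29 in GFP-positive arrays and 11.36, 11.12 and 11.13 in GFP-negative arrays. The groups were 0.70 apart, and the gene fell 1.91-fold (−0.93 ± 0.10 SE, limma adjusted p = 0.00395). Slit3 encodes a secreted Slit known from mesenchyme of the diaphragm and from vessels. It was at 10.65, 10.52 and 10.67 in GFP-positive arrays and 11.04, 11.09 and 11.11 in GFP-negative arrays, and fell 1.38-fold (−0.47 ± 0.06 SE, limma adjusted p = 0.00714) with groups that did not overlap. Robo1, which lies on chromosome 16 as Robo2 does, was at 12.20, 12.19 and 11.98 in GFP-positive and 12.19, 12.07 and 11.92 in GFP-negative arrays, with overlapping groups and a change of 0.06 ± 0.09 SE (limma adjusted p = 0.806). Slit2 and Slit1 had changes of −0.05 and −0.06, and Robo3, which acts at the midline of the nervous system and was below the mark of dim signal in both groups, had 0.04.

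**Figure D3:**
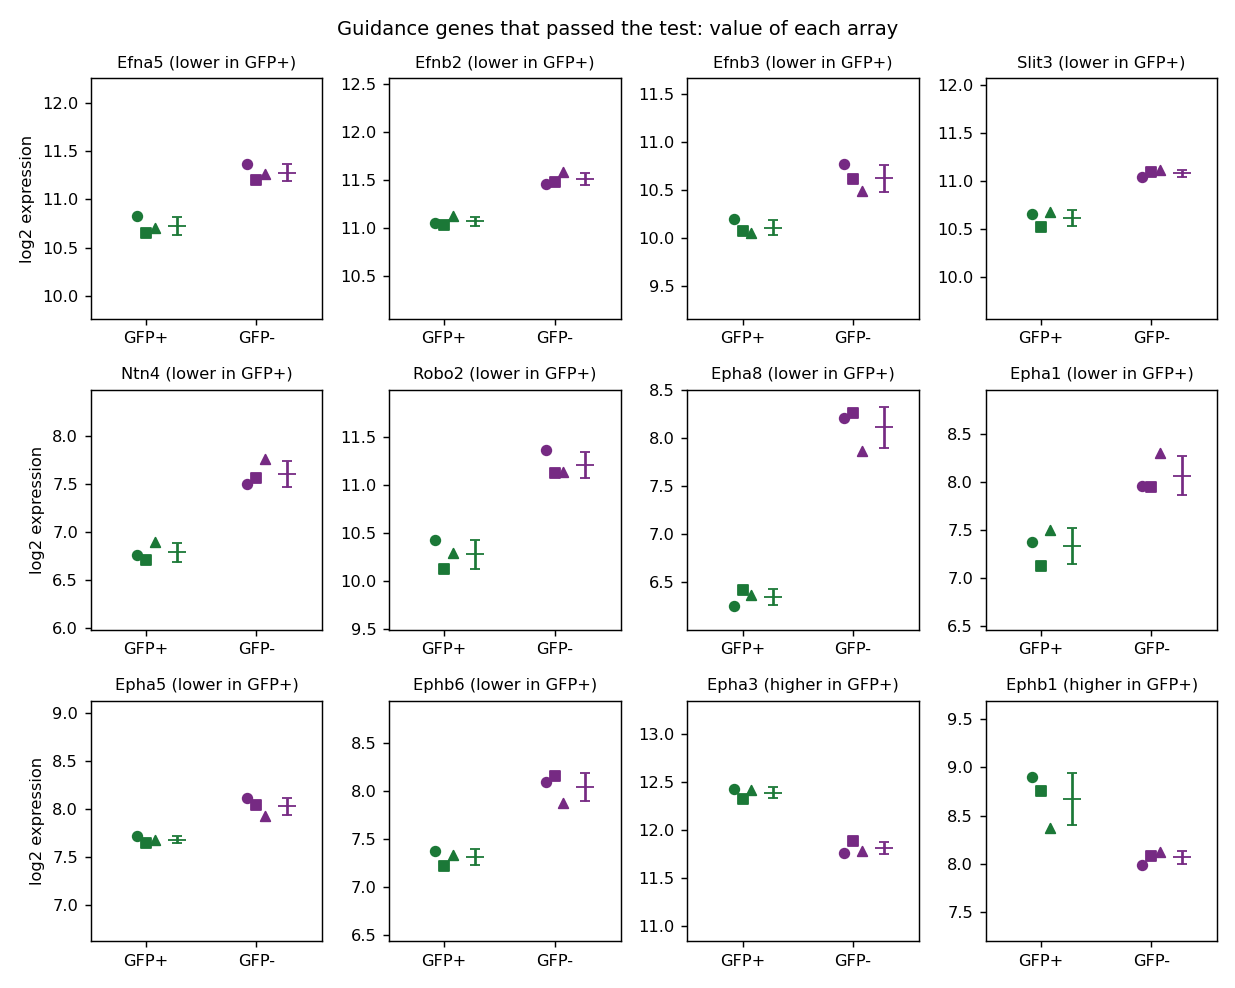
Log2 expression (vertical axis, the same span in each panel) of the 12 guidance genes that passed, in each GFP-positive and GFP-negative array, with the group mean and SD (n = 3) beside the points and a symbol shape for each replicate number. The groups do not overlap in any panel, with gaps from 0.21 for Epha5 to 1.45 for Epha8.

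Of the netrin genes, 1 of 3 fell. Ntn4 encodes netrin-4, a netrin of basement membranes that binds laminin. Its values were 6.76, 6.71 and 6.90 in GFP-positive arrays and 7.50, 7.56 and 7.76 in GFP-negative arrays. The groups did not overlap, and the gene fell 1.76-fold (−0.82 ± 0.09 SE, limma adjusted p = 0.00371), to a mean of 6.79 ± 0.09 (SD, n = 3) in GFP-positive cells that is close to the mark of dim signal. Ntn1, the classical ligand of Dcc, was at 10.89, 11.05 and 10.95 in GFP-positive and 10.56, 10.95 and 10.99 in GFP-negative arrays, and its change of 0.13 ± 0.12 SE did not pass (limma adjusted p = 0.658). Ntn3, a further netrin that binds Dcc and Unc5 receptors, had a change of 0.10 with overlapping groups.

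None of the 5 netrin receptor genes passed limma's test, and 2 of them, Unc5a and Unc5c, had an unadjusted p under 0.05. With the replicate block 3 of the 5 passed. Dcc, the attractive receptor, was at 9.55, 9.02 and 8.99 in GFP-positive and 9.19, 8.76 and 8.54 in GFP-negative arrays. The groups overlapped widely, while arrays of the same number differed by 0.36, 0.26 and 0.44. Its log2 change of 0.35 had a standard error of 0.21 without the block (limma adjusted p = 0.467) and 0.06 with it (limma adjusted p = 0.0253). Unc5a, a repulsive netrin receptor, was at 7.35, 7.61 and 7.32 in GFP-positive and 7.14, 7.32 and 7.06 in GFP-negative arrays, a change of 0.26 ± 0.10 SE (limma adjusted p = 0.268, or 0.0396 with the block). Unc5c, a receptor of the same class, was at 10.51, 10.18 and 10.08 in GFP-positive and 10.81, 10.71 and 10.51 in GFP-negative arrays, a change of −0.42 ± 0.13 SE (limma adjusted p = 0.138, or 0.02 with the block). Unc5b, which is also known from vessels, and Unc5d had changes of −0.23 and −0.46 and passed neither without nor with the block (limma adjusted p = 0.113 and 0.0921 with it). In all 5 genes the 3 differences between arrays of the same number (GFP-positive minus GFP-negative) had one sign. It was positive for Dcc and Unc5a and negative for Unc5b, Unc5c and Unc5d. Members that passed in neither fit also had one sign, such as Ephb4 (0.13, 0.13 and 0.1) and Epha2 (−0.09, −0.22 and −0.04). The share of all genes with differences of one sign was not determined, so the sign alone does not mark a change.

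**Figure D4:**
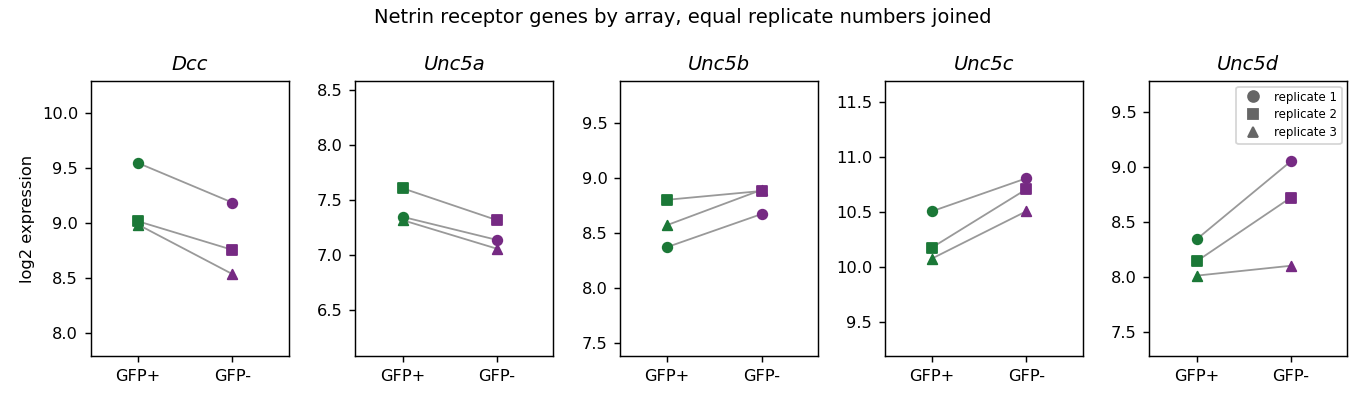
Log2 expression of the 5 netrin receptor genes in each array, the same span in each panel, with lines joining the GFP-positive and GFP-negative arrays of the same replicate number. For Dcc the lines run nearly parallel, with differences of 0.36, 0.26 and 0.44, although the groups overlap.

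Promoter windows are shown for the receptor with the largest fall (Epha8), for the rising receptor with the smallest p (Epha3), and for the Slit ligand and Robo receptor genes that fell. The sequences are RefSeq's for build GRCm38.p6, from 250 bases before to 50 after a gene's start, and 30 of the 35 members matched an entry. Capitals mark CCCNNGGG, the core of the motif that early B cell factors are known to bind, which reads the same on both strands.
Epha8, chr4:136956767-136957066, minus strand: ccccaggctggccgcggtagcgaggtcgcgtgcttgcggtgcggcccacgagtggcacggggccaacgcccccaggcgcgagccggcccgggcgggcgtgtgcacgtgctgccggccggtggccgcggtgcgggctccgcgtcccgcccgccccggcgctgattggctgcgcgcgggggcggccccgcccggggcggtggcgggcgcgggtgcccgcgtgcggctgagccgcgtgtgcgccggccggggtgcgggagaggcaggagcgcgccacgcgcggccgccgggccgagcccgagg
Epha3, chr16:63864126-63864425, minus strand: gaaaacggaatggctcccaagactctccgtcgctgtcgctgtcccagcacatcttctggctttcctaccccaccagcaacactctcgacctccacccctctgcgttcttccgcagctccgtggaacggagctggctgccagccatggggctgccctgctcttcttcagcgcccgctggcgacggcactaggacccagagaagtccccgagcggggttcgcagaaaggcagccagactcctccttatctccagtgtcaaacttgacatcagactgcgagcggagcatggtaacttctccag
Slit3, chr11:35121206-35121505, plus strand: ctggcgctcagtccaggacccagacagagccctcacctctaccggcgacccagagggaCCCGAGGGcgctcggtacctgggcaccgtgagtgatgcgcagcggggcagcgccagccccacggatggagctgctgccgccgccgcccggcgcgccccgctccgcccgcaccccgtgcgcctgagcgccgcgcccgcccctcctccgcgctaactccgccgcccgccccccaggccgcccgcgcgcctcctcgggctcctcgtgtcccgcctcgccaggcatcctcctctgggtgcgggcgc
Robo2, chr16:74411776-74412075, minus strand: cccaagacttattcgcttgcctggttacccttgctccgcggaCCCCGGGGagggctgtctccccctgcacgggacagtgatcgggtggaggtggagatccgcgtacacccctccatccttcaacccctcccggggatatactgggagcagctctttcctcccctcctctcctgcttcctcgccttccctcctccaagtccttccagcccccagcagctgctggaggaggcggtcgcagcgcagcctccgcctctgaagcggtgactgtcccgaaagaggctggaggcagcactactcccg

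The Slit3 window held 1 match, which begins at −192 relative to the gene's start. The Robo2 window shown held 1, which begins at −208, and it is 1 of 3 for this gene and the one of them with a match. The Epha8 and Epha3 windows held none, and the Epha8 window was the richest of the 4 in G and C (84.3%, against 78.3% for Slit3). Over the members, 7 of 30 genes with a window had a match, among them 3 of the 9 lower genes (Slit3, Robo2 and Ntn4), 0 of the 2 higher genes and 4 of the 19 that did not pass. Among all genes with a window, 15.4% had one, and 13.7% of all windows did. A match is a description of letters and not a site.

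Partner genes encode proteins that act with these receptors or belong to the netrin-G group. They were taken in lists of 16 Eph and ephrin partners, 13 Slit and Robo partners and 22 netrin receptor partners, of which 49 were measured. The netrin-G genes, Ntng1 among them, are counted in the last list although netrin-G1 does not use Dcc or Unc5. In all, 3 partners rose (6.12%) and 3 fell (6.12%), against 2.65% and 3.84% of all genes, and their median log2 change was 0.054. The lists were chosen with earlier results of these data known, so shares of the partners beside those of all genes are descriptive. With the replicate block 6 rose and 5 fell, where 4.55% of all genes were higher and 5.49% lower. Among the 16 Eph and ephrin partners, 1 fell and 1 rose. Vav3, which Eph receptors recruit, was at 7.33, 7.59 and 7.35 in GFP-positive and 8.53, 8.47 and 8.42 in GFP-negative arrays, a fall of 2.08-fold (−1.05 ± 0.08 SE, limma adjusted p = 0.00123). Tiam1, an activator of Rac, was at 10.05, 9.93 and 9.75 in GFP-positive and 9.28, 9.07 and 8.93 in GFP-negative arrays, a rise of 1.76-fold (0.82 ± 0.11 SE, limma adjusted p = 0.00947, or 0.0517 without GFP-positive replicate 2). Groups did not overlap in either gene.

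Of the Slit and Robo partners, 2 of 13 rose (15.4%) and none fell, against 2.65% higher and 3.84% lower among all genes. The median log2 change of this list was 0.059. Srgap3, a GTPase-activating protein that binds Robo receptors, rose 1.25-fold (0.33 ± 0.06 SE, limma adjusted p = 0.022), with values of 10.90, 10.85 and 10.86 in GFP-positive and 10.58, 10.59 and 10.46 in GFP-negative arrays. Gpc1, a heparan sulfate proteoglycan that binds Slits, rose 1.29-fold (0.37 ± 0.07 SE, limma adjusted p = 0.0362), with values of 11.01, 11.03 and 11.00 in GFP-positive and 10.79, 10.62 and 10.53 in GFP-negative arrays. Both calls were lost in most fits with 1 array left out, 4 of 6 for Srgap3 and 5 of 6 for Gpc1. Such fits have fewer degrees of freedom, and neither change reversed. The call of Srgap3 ended without GFP-negative replicate 3 or any 1 GFP-positive array (0.0557 to 0.0923). That of Gpc1 ended without any 1 array other than GFP-negative replicate 1 (0.086 to 0.133). With the mean of the Gpc1 probe sets the change was 0.186, in place of 0.368 for the probe set used, and did not pass (limma adjusted p = 0.0984).

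Of 20 measured netrin receptor partners, 2 fell and none rose. Flrt2, a membrane protein that is a repulsive ligand of Unc5 receptors, was at 11.44, 11.18 and 11.32 in GFP-positive and 11.70, 11.77 and 11.71 in GFP-negative arrays, a fall of 1.33-fold (−0.42 ± 0.07 SE, limma adjusted p = 0.0234). Its call ended without any 1 array other than GFP-positive replicate 1 (0.0641 to 0.0864). Ntng1 encodes netrin-G1, a membrane-anchored relative of the netrins that does not use Dcc or Unc5, and fell 1.30-fold (−0.38 ± 0.07 SE, limma adjusted p = 0.0288), with values of 6.97, 6.83 and 6.97 in GFP-positive and 7.40, 7.22 and 7.27 in GFP-negative arrays. That call ended with median centring (0.0649), with quantile normalization (0.0831) and without any 1 array other than GFP-negative replicate 2 (0.0673 to 0.102). Neo1, a Dcc-related netrin receptor outside the symbols used for the members, had a change of 0.11 ± 0.06 SE that did not pass (limma adjusted p = 0.407).

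**Figure D5:**
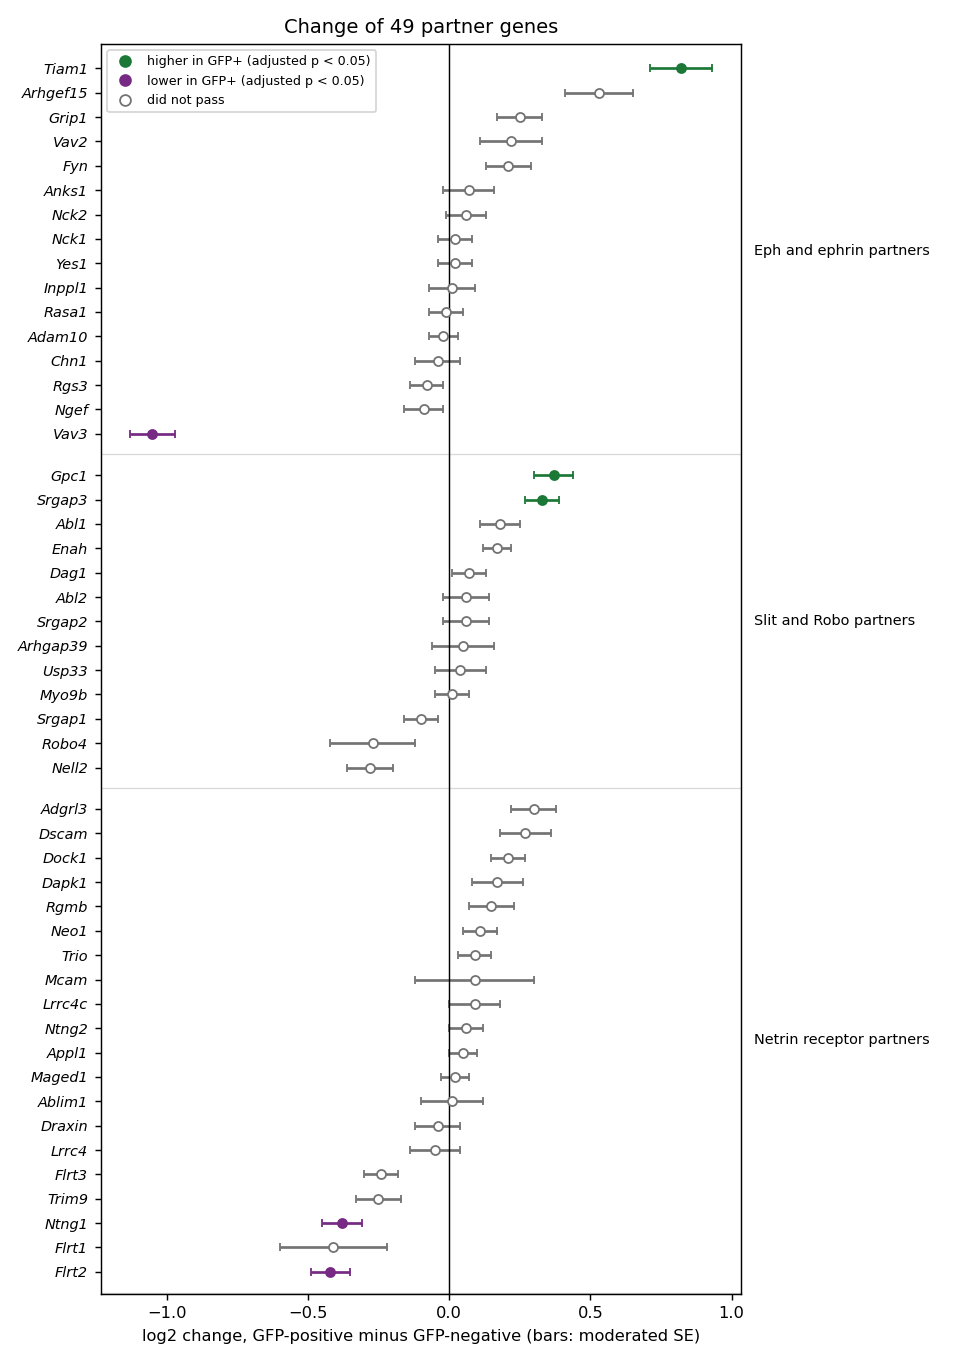
Log2 change, GFP-positive minus GFP-negative, with limma's moderated standard error, for the 49 measured partner genes in 3 lists. Filled points passed the test, 3 higher and 3 lower in GFP-positive cells, between −1.05 for Vav3 and 0.82 for Tiam1.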

How the data were processed

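Total RNA of 6 sorted samples was labelled with biotin and hybridised to Affymetrix arrays. The deposited values are log2 expression per probe set. RMA and limma are named in the submitters' processing notes, without versions, and the log2 scale was read from the values. RMA gives all arrays like distributions, which would hide a change shared by most genes. Precision is limited by having 3 arrays a group. The files carry no detection calls.

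Of 41345 probe sets, 23521 list 1 gene in the platform table, 1814 several and 16010 none. Genes were named from the first kind, with symbols updated by gene identifier through the RefSeq table of GRCm38.p6 (21994 of 22180 genes matched). For a gene with several probe sets, the one with the highest mean over the 6 arrays was used, without a filter. Levels of different genes are not compared. lmFit and eBayes of limma 3.58.1 (R 4.3.3) compared GFP-positive with GFP-negative arrays over all 22180 genes, with Benjamini-Hochberg adjustment and a threshold of 0.05, and the script was checked on simulated data. Errors beside changes are limma's moderated standard errors. Members that passed, had an unadjusted p under 0.05 or changed by at least 0.5 (log2) are given with values, as are partners that passed. Dcc, Neo1 and members given beside a relative were named after their values were seen. The members and lists were chosen with earlier results of these data known.

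Deviations from the group mean correlated at 0.314 to 0.519 between arrays of the same replicate number and at −0.384 to −0.024 otherwise. The numbers were therefore used as a block in an alternative fit, while calls are reported from the fit without it. These correlations depend on each other. The comparison was repeated with the replicate block, without each array in turn, without dim genes, with quantile normalization or median centring, with array weights, with a trended or a robust eBayes, with other uses of several probe sets, and at stricter thresholds. Plots were drawn with matplotlib 3.10.9.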

Additional observations from a re-analysis of the deposited data

How the results depend on the processing

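In 15 alternative fits no change of the 12 passed guidance genes, the 6 passed partners or the 6 other members tested under each setting reversed. The calls of 8 of the 12 guidance genes (Epha8, Epha3, Ephb6, Robo2, Slit3, Efna5, Efnb2 and Ntn4) held in every fit and at an adjusted p under 0.01, and 4 (Efnb3, Epha1, Epha5 and Ephb1) were lost in at least 1. With the replicate block, 4 guidance genes were higher, 6 partners were higher and 5 lower, and of all genes 1010 were higher and 1218 lower. Among the guidance genes the block changed the calls of Dcc, Ephb3, Unc5a and Unc5c and no other. Array weights left 1 higher guidance gene. At an adjusted p under 0.01, 1 guidance gene was higher, 1 partner was higher and 1 lower, and 208 of all genes were higher and 331 lower. With a log2 change of at least 1 as well, 0 guidance genes were higher and 1 lower, 0 partners were higher and 1 lower, and 78 of all genes were higher and 308 lower. With 1 array left out, guidance genes numbered 1 to 2 higher and 7 to 9 lower, partners 0 to 4 higher and 1 to 2 lower, and all genes 241 to 441 higher and 388 to 656 lower. Fewer arrays leave fewer degrees of freedom. The other alternatives kept these counts within 1.5 times. Signal near the mark of dim genes limits the folds of Epha8 and Ntn4, and of Epha6 and Robo3, which are dim in both groups.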

Other observations

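Chosen after its values were seen, Arhgef15, an exchange factor of endothelium and vascular smooth muscle that acts with Eph receptors, was at 7.56, 7.81 and 7.61 in GFP-positive and 6.93, 7.35 and 7.12 in GFP-negative arrays. Its log2 change of 0.53 ± 0.12 SE missed the threshold (limma adjusted p = 0.0554) although the groups did not overlap, and passed with the replicate block (0.00832), quantile normalization, median centring, array weights and when dim genes or GFP-negative replicate 2 were left out. Robo4, an endothelial Robo, had a change of −0.27 ± 0.15 SE with overlapping groups (limma adjusted p = 0.435). Of the 10 endothelial markers, Emcn rose 1.92-fold (limma adjusted p = 0.0214), Cdh5 fell by 1.00 on the log2 scale (limma adjusted p = 0.016) and the others did not pass, and the median log2 change of the list was −0.19.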
